A study of Mus musculus with 70 samples.

Results

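The middle of the dark phase was set against the middle of the light phase in the hippocampus of APP23 transgenic mice (TG) kept on time-restricted feeding (TRF). At Zeitgeber time 18 (ZT18), inside the daily feeding window, 3 animals were killed, and at ZT6, during the daily fast, 4 animals were killed. They are called here by the end of their labels, which gives the time and the animal number: 18_330, 18_302 and 18_305 at ZT18, and 6_308, 6_331, 6_307 and 6_315 at ZT6. These 7 libraries were picked by their labels, out of 70 libraries from 69 animals. The lights came on at ZT0 and went off at ZT12, giving 12 h of light and 12 h of darkness, and food was offered for 6 h, from ZT15 to ZT21. Both groups carry the same transgene, human APP driven by the Thy1 promoter on a B6 background (B6.Cg-Tg(Thy1-APP)3Somm), which acts in neurons. The mice were 6 to 9 months old when restriction began, and it lasted until death at an age of 10 to 13 months. Some mice of the study had earlier been held in constant darkness and shifted light cycles, and the labels do not say which. The animals set beside them were TG fed ad libitum (ALF), 3 at ZT18 and 4 at ZT6, and non-transgenic littermates (NTG) on TRF, 2 at ZT18 and 2 at ZT6. TG on TRF killed at ZT0 (6 animals) and ZT12 (5 animals) gave the rest of the day. Food, darkness and clock time change together between ZT18 and ZT6, so they cannot be told apart here.

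Mice are active and eat mostly in the dark. Body and brain temperature are higher then, and rest and sleep fall mostly in the light. The circadian clock of every cell is a feedback loop in which CLOCK and BMAL1 switch on the Per and Cry genes through E-boxes, and PER and CRY proteins shut that activation off. The PAR bZIP factors DBP, TEF and HLF pass the rhythm on through D-boxes. Heat shock proteins respond to temperature through HSF1, chaperones of the endoplasmic reticulum (ER) respond to the secretory load through ATF6 and XBP1, and sterol synthesis genes respond to cellular sterol through SREBP2. Immediate early genes in the hippocampus are switched on within minutes by neuronal firing. APP23 mice deposit amyloid plaques with age in cortex and hippocampus.

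Several libraries stood apart. Depth, estimated from the step of the deposited values, was 29.3 to 47.1 M reads in the 7 libraries. Thy1, whose promoter drives the transgene, lay between 115876 and 142473 normalized counts in all 7 animals, against 14727 to 29068 in the 32 NTG animals of the series. The ZT6 library 6_315 held 4.99% of its counts in Rn45s, a ribosomal RNA gene, against 0.255% to 0.492% in the other 6, and 6.21% in mitochondrially encoded transcripts, against 3.63% to 4.89%. The ZT6 library 6_307 ranked 8 of 69 from the lowest in its median correlation with all other animals. Xist, made from the inactive X chromosome of females, was at 30638, 12.4 and 2.73 normalized counts at ZT18, against 29046, 31493, 6.46 and 311.9 at ZT6, so each group mixed high and low animals, and the sex of single animals is not given. Choroid plexus RNA was uneven within both groups: Ttr, its marker, was at 120334, 191 and 76506 normalized counts at ZT18, against 88748, 318, 6174 and 112950 at ZT6. The summed level of the 20 measured choroid plexus markers ranged from 8596 to 185015 at ZT18, against 9531 to 209501 at ZT6. Defining markers of neurons (Rbfox3, Snap25) and of hippocampal subfields (C1ql2, Amigo2) were detected in all 7 libraries.

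Of 14260 genes, 161 (1.13%) passed the test at an adjusted p under 0.05 (limma, Benjamini-Hochberg). Those lower at ZT18 were 54 (0.379% of all genes), and the rest (0.75%) were higher. At an unadjusted p under 0.05 there were 1485 genes. The animals of both groups did not overlap for 1781 genes (12.5%), 952 of them (6.68%) higher at ZT18 and 829 (5.81%) lower. Among the 161 called genes, 159 (1.12% of all genes) did not overlap. The exceptions were Tmprss5 and Zfp236, named here after their values were seen. The split of higher and lower calls moved with the scaling: 66.5% of calls were higher under the authors' factors, 80.3% of 157 with each library scaled to the same total and 79.4% of 165 with voom weights. The number of calls also changed as animals were left out, which leaves fewer animals in the fit, and the cause was not tested. Leaving out 1 animal at ZT18 left 31 calls (without 18_330), 33 (without 18_302) or 29 (without 18_305), and leaving out 1 animal at ZT6 left 58 (without 6_308) or 49 (without 6_307), and without 6_331 or 6_315 the count stayed within 1.5 times of 161. Without both 6_307 and 6_315 there were 19 calls, of which 18 were among the 161.

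The 10 largest rises among called genes without overlap were those of Noxred1, Fmo2, Hspb1, Zbtb40, Sdf2l1, Tubd1, H3c14, Banp, Cys1 and Serpinh1, and the 10 largest falls those of Cstad, Opalin, 9930014A18Rik, Fbxl9, Npas4, Pla2g4e, Ier2, Fosb, Tnni1 and Mcm2. All log2 differences are of the normalized count plus 1, ZT18 minus ZT6, with the standard error (SE) of the fit, and per-animal values follow the animal order given above. Of the 41 called genes that the naming rule chose, 8 kept their call whichever of the 7 animals was left out: Hspa5, Chordc1, Dnaja4, Banp, Zbtb40, Pla2g4e, Opalin and 9930014A18Rik. Without 6_307 and 6_315 together, 8 of the 41 were called: Hspa5, Xbp1, Chordc1, Srsf10, Banp, Mcm2, Opalin and 9930014A18Rik.

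**Figure D1:**
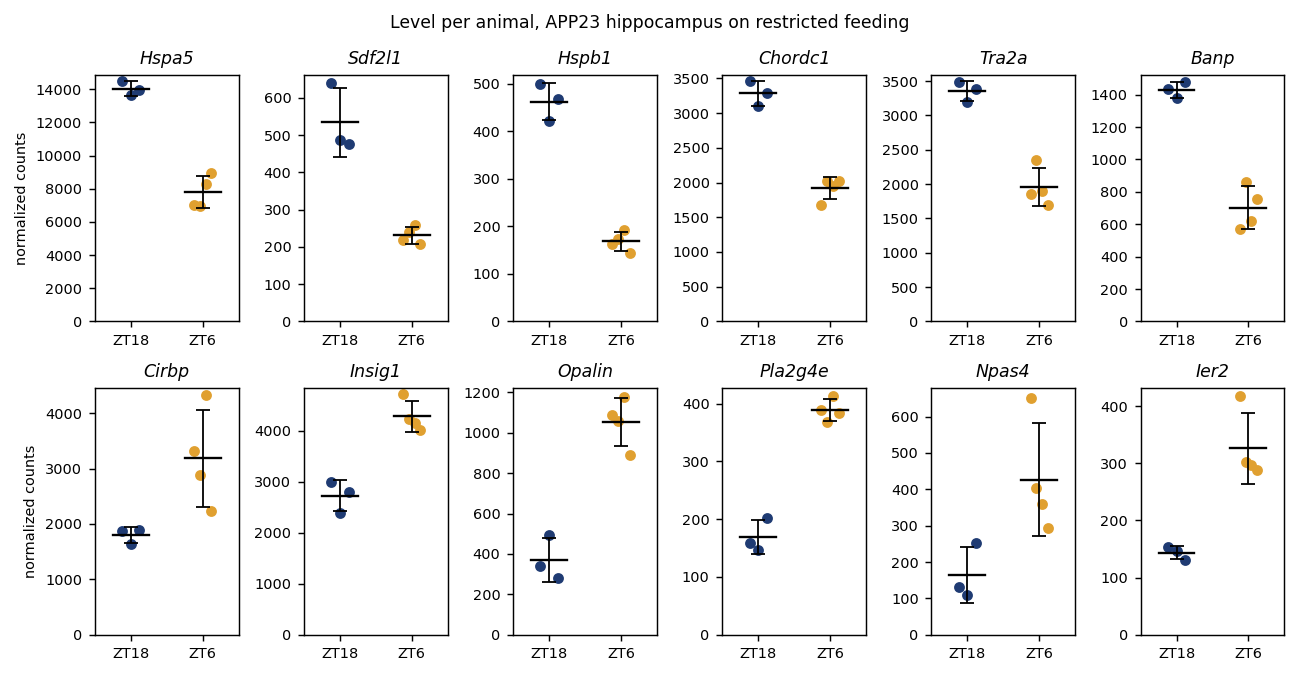
Normalized counts of 12 called genes in each animal (points), with the mean and SD of each group (bars), in APP23 hippocampus on restricted feeding; ZT18 stands left of ZT6. In every panel the 3 animals at ZT18 lie outside the range of the 4 animals at ZT6.

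Chaperones of the ER had mostly higher values in the middle of the dark phase. Of the 19 measured genes of this list, 6 (Hspa5, Sdf2l1, Xbp1, Manf, Pdia6 and Calr) passed the test, all higher at ZT18, where 1.13% of all genes passed in either direction and 0.75% upward. The other 13 did not pass. The list's median log2 difference was 0.42, against -0.004 over all genes, and 18 of 19 members had a positive difference. For 13 members (68.4%) the animals did not overlap, all with ZT18 higher, against 6.68% of all genes. Hspa5, which encodes BiP, the main Hsp70 chaperone of the ER lumen (chromosome 2, 34772090 to 34776529, GRCm38), was at 14500, 13636 and 13943 normalized counts at ZT18, against 6996, 6983, 8265 and 8935 at ZT6. Every animal at ZT18 exceeded every animal at ZT6, and the level was 1.81-fold higher (log2 difference 0.86 ± 0.15, adjusted p = 0.00103, limma). Sdf2l1, a small luminal protein that works with BiP (chromosome 16, 17130138 to 17132383, GRCm38), was at 641, 487 and 476 normalized counts at ZT18, against 218, 239.7, 259 and 208 at ZT6. It was 2.3-fold higher (log2 difference 1.20 ± 0.28, adjusted p = 0.0183), and animal 18_330 was the highest. Xbp1 encodes the transcription factor that the unfolded protein response activates by splicing of its mRNA, and these values do not separate the spliced form. The level of Xbp1 was 3659, 3486 and 3204 normalized counts at ZT18, against 2149, 2482, 2535 and 2416 at ZT6 (log2 difference 0.53 ± 0.11, adjusted p = 0.00557). Pdia6, a protein disulfide isomerase, was at 5170, 5012 and 4591 normalized counts at ZT18, against 3359, 3181, 3789 and 3641 at ZT6, again without overlap (log2 difference 0.50 ± 0.12, adjusted p = 0.0225). Calr, the calcium-binding lectin chaperone calreticulin, was at 8191, 7672 and 7271 normalized counts at ZT18, against 5414, 5313, 5580 and 6026 at ZT6 (log2 difference 0.47 ± 0.12, adjusted p = 0.0305). Manf, an ER-resident and secreted neurotrophic factor, was at 2394, 1918 and 1976 normalized counts at ZT18, against 1187, 1226, 1675 and 1084 at ZT6 (log2 difference 0.71 ± 0.19, adjusted p = 0.0467). Calr and Manf were named because they passed, after their values were seen. Among the members that did not pass, Pdia4 had a log2 difference of 0.59, Creld2 one of 0.59 and Hyou1 one of 0.53, whereas Canx and P4hb lay at 0.01 and -0.001. With 1 animal left out at a time, 1 to 5 members were called, and 2 without 6_307 and 6_315, while the list's median stayed between 0.38 and 0.48. No member was called when only the 18 TG animals on TRF shared the spread, with the median still at 0.42.

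The response element of ATF6 and XBP1 was looked up in the promoters of these genes, as other elements were for other lists below. Each window holds the 250 bases before the RefSeq start (GRCm38.p6), written 5′ to 3′ in the direction of the gene. The ER stress response element (CCAAT, then any 9 bases, then CCACG, on either strand) was present in 7 of 17 windows (41.2%): Hspa5, Hsp90b1, Calr, Canx, Pdia6, Dnajc3 and Creld2. It was present in 0.13% of the windows of 27025 genes. Of the 6 called genes 3 held it, Sdf2l1 and Xbp1 held no match in this window, and Manf had no window to search. Canx and Hsp90b1 hold the motif and did not pass the test, so presence of these letters and the test did not go together gene by gene. A match is a run of letters, not a measured binding site. The windows of the 3 called genes with a match are printed here with the element in capitals.
Hspa5, chr2:34771840-34772089, plus strand: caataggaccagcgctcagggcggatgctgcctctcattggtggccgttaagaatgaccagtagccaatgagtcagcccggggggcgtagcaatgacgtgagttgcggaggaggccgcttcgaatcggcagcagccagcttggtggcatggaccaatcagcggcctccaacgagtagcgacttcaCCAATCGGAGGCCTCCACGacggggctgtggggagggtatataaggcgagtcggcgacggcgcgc
Pdia6, chr12:17266339-17266588, plus strand: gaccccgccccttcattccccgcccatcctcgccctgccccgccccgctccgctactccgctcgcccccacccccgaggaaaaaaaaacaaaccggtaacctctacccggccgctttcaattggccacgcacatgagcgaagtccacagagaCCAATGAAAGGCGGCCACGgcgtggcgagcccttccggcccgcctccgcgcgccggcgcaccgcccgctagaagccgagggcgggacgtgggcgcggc
Calr, chr8:84846932-84847181, minus strand: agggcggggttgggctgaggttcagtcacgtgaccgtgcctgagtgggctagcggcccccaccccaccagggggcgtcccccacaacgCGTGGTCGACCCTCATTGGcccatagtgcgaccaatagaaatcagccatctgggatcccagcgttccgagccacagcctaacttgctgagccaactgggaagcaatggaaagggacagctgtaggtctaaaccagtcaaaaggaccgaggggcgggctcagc
In Hspa5 the element begins 65 bases before the start, in Pdia6 98 bases and in Calr 162 bases, where it lies on the other strand.

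Cytosolic heat shock proteins and their co-chaperones leaned the same way. Of 25 measured members 5 passed, all higher at ZT18 (Hspb1, Hspa1b, Chordc1, Dnaja4 and Dnajb4), where 0.75% of all genes passed upward, and 24 of 25 had a positive difference, with a median of 0.22. Hspb1, a small heat shock protein that protects the actin skeleton (chromosome 5, 135887919 to 135889563, GRCm38), was at 499, 421 and 468 normalized counts at ZT18, against 163, 174, 193 and 144.4 at ZT6. All 3 animals at ZT18 were more than the highest at ZT6, with a 2.74-fold higher level at ZT18 (log2 difference 1.45 ± 0.32, adjusted p = 0.0121, limma). Chordc1, a co-chaperone of Hsp90, was at 3465, 3107 and 3286 normalized counts at ZT18, against 1680, 2016, 1956 and 2023 at ZT6 (log2 difference 0.78 ± 0.13, adjusted p = 0.000668). Dnaja4, a J-domain partner of Hsp70, was at 3803, 3161 and 3165 normalized counts at ZT18, against 2407, 2549, 2400 and 2057 at ZT6 (log2 difference 0.52 ± 0.09, adjusted p = 0.000668). Both kept their call without any 1 of the 7 animals. Hspa1b encodes the heat-inducible Hsp70 and was at 859, 631 and 648 normalized counts at ZT18, against 348, 442, 366 and 351 at ZT6 (log2 difference 0.91 ± 0.18, adjusted p = 0.00393). Hspa1a is a near-identical neighbour, so reads may have been split between them, and its own difference of 0.40 did not pass. Dnajb4, another J-domain protein, was at 3045, 2986 and 2963 normalized counts at ZT18, against 2088, 2112, 2475 and 2183 at ZT6 (log2 difference 0.44 ± 0.10, adjusted p = 0.0169). Hspa8, the constitutive Hsp70, differed by 0.08 and Hsp90aa1 by -0.07, and neither passed. Serpinh1, a collagen chaperone of the ER that is also heat-inducible, was not on the list and was at 702, 635 and 567 normalized counts at ZT18, against 401, 299, 252 and 336 at ZT6 (log2 difference 0.99 ± 0.24, adjusted p = 0.0225). Its call was lost without 18_330, 18_302, 18_305 or 6_307. Leaving out 1 animal left 2 to 5 called members of the list, and leaving out 6_307 and 6_315 left 2. The heat shock element (GAA, TTC and GAA with any 2 bases between neighbours, on either strand) was found in 2 of 21 windows (9.52%), those of Hspd1 and Hspe1, which share one promoter region, against 0.514% of all windows, and in none of the 5 called genes.

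Cirbp, an RNA-binding protein that is induced by mild cooling, was lower at ZT18. It was at 1872, 1632 and 1896 normalized counts at ZT18, against 3314, 2881, 4324 and 2226 at ZT6, and all 3 animals at ZT18 were below the lowest at ZT6 (log2 difference -0.79 ± 0.19, adjusted p = 0.0225, limma), a level that fell by 42%. The ZT6 animals spread widely, with 6_307 highest. The call was lost without 18_330, 18_302, 18_305, 6_308 or 6_307, with differences between -0.94 and -0.62 as any 1 animal was left out. Rbm3, the other cold-inducible protein of this kind, was at 2424, 2426 and 2683 normalized counts at ZT18, against 2509, 2483, 3760 and 2640 at ZT6. The ZT6 animal 6_307 was again the highest, the other 6 overlapped, and the difference of -0.16 ± 0.17 did not pass.

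**Figure D2:**
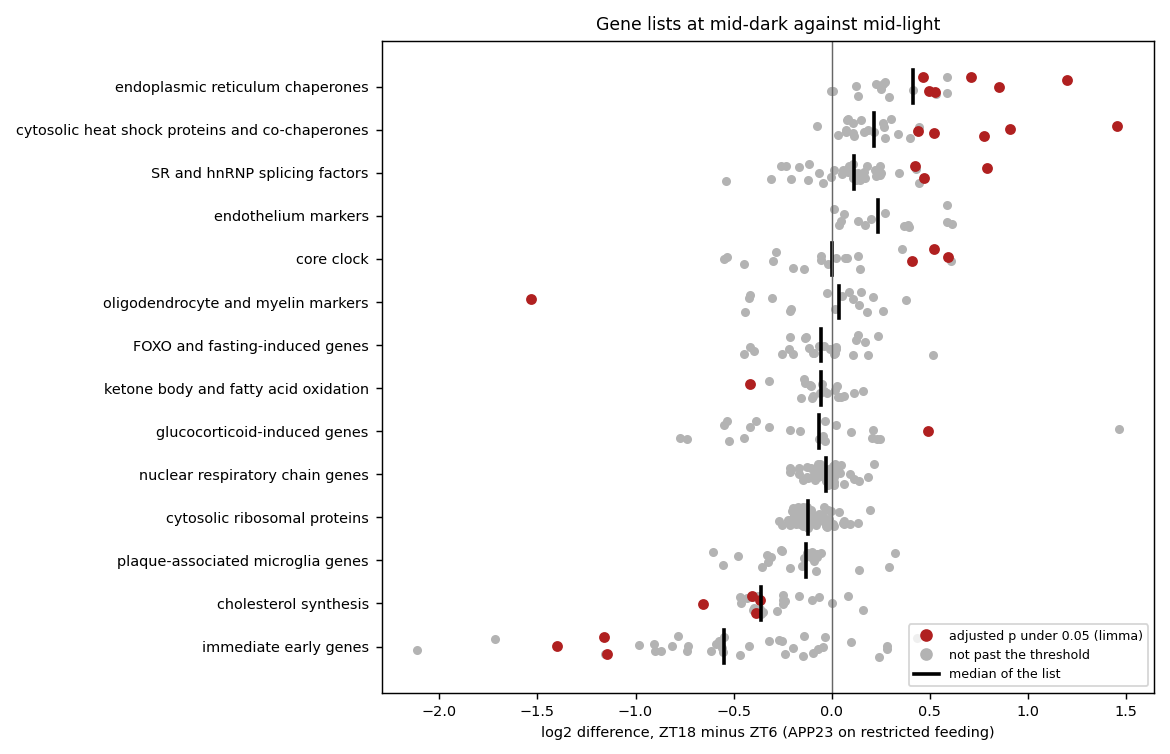
Log2 difference (ZT18 minus ZT6) of each measured gene in 14 lists, in APP23 hippocampus on restricted feeding; red points passed the test, grey points did not, and black bars are list medians. The ER chaperone median lies at 0.42 and the immediate early gene median at -0.55.

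Clock genes did not move as a block, with 10 of 20 members positive and a median difference of 0.002 (-0.05 to 0.06 as 1 animal was left out). Cry1, Per3 and Tef passed the test, all higher at ZT18, where 0.75% of all genes passed upward, and the other 17 did not pass. Cry1, a repressor of the loop (chromosome 10, 85131700 to 85185054, GRCm38), was at 779, 859 and 848 normalized counts at ZT18, against 589, 566, 657 and 503 at ZT6 (log2 difference 0.52 ± 0.13, adjusted p = 0.0243, limma). All 3 animals at ZT18 were above the 4 at ZT6. Per3, a Period gene, was at 1870, 2382 and 2760 normalized counts at ZT18, against 1476, 1836, 1405 and 1430 at ZT6 (log2 difference 0.59 ± 0.16, adjusted p = 0.0455). The ZT6 animal 6_331 was close to the lowest animal at ZT18. Tef, a D-box factor, was at 15855, 17895 and 17329 normalized counts at ZT18, against 12335, 14075, 12329 and 12500 at ZT6 (log2 difference 0.41 ± 0.11, adjusted p = 0.0345), where 6_331 was again the highest at ZT6. These 3 calls were fragile: leaving out 1 animal left 0 to 3 of them, and none remained without 6_307 and 6_315. Per2 had a difference as large as that of Per3, with 1461, 1389 and 2029 normalized counts at ZT18, against 1112, 1274, 749.7 and 1148 at ZT6, but did not pass (log2 difference 0.61 ± 0.22, adjusted p = 0.199). Per1 went the other way, with 1938, 2019 and 2838 normalized counts at ZT18, against 3437, 3415, 2687 and 3576 at ZT6, and did not pass (log2 difference -0.55 ± 0.18, adjusted p = 0.142). The ZT18 animal 18_305 overlapped with the ZT6 animal 6_307. Dbp, with 1170, 1545 and 1542 normalized counts at ZT18, against 2352, 2031, 1812 and 1558 at ZT6, was lower in every ZT18 animal but did not pass (log2 difference -0.44 ± 0.20, adjusted p = 0.379). Ciart, a repressor of CLOCK and BMAL1, differed by -0.53 ± 0.20 and Nr1d1, which represses Bmal1, by -0.28 ± 0.10, and neither passed. Bmal1 itself differed by -0.02 ± 0.12 and Clock by 0.02 ± 0.19.

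Over the 4 times of day in TG on TRF, these genes kept different shapes. Per1 averaged 2291 ± 491 normalized counts (SD) at ZT0, 3279 ± 401 at ZT6, 3450 ± 406 at ZT12, then 2265 ± 498 at ZT18. It was low at both ZT0 and ZT18. Cry1 averaged 604 ± 68.6 normalized counts (SD) at ZT0, 579 ± 63.9 at ZT6, 808 ± 149 at ZT12, then 829 ± 42.9 at ZT18, so its means at ZT12 and ZT18 were close to each other. Dbp averaged 859 ± 132 normalized counts (SD) at ZT0, 1938 ± 337 at ZT6, 2501 ± 219.9 at ZT12, then 1419 ± 216 at ZT18, with its highest mean at ZT12. Bmal1 averaged 1392 ± 151 normalized counts (SD) at ZT0, 1078 ± 69.2 at ZT6, 895 ± 128 at ZT12, then 1067 ± 83.6 at ZT18, with its lowest mean at ZT12 and similar means at ZT6 and ZT18. Cirbp averaged 1711 ± 347 normalized counts (SD) at ZT0, 3186 ± 881 at ZT6, 3515 ± 844 at ZT12, then 1800 ± 146 at ZT18. Of the 11 animals at ZT0 and ZT12 only 2 carry numbers in the 300s, as all 7 at ZT6 and ZT18 do, and what the number series stands for is not given, so time and number series cannot be told apart here.

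**Figure D3:**
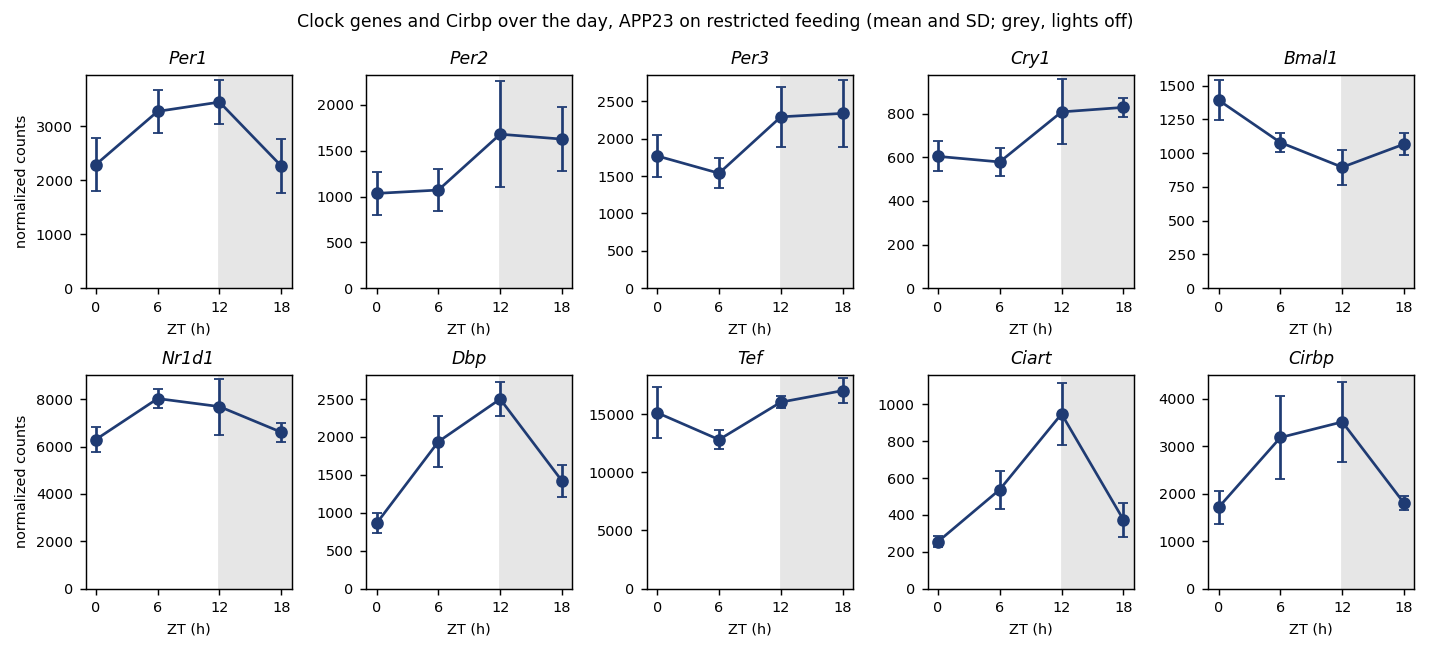
Mean normalized counts with SD (bars) of 9 clock genes and Cirbp at ZT0 (n = 6), ZT6 (n = 4), ZT12 (n = 5) and ZT18 (n = 3) in APP23 hippocampus on restricted feeding, with the dark phase in grey. Per1 and Cirbp are low at ZT0 and ZT18, and Cry1 is high at ZT12 and ZT18.

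Promoter windows of clock genes are shown for Cry1, a called member with a match to the E-box CACGTG, and Per3, a called member with a match to the D-box TTATGNAA. The E-box was present in 5 of 16 clock genes with a window (31.2%; Per1, Cry1, Tef, Ciart and Bhlhe41). Its share was 6.86% over all genes with a window and 9.75% over the 11019 measured ones. The D-box was present in 2 of 16 (12.5%; Per1 and Per3), against 3.63% of all genes with a window and 2.36% of the measured ones. Genes with an E-box lay on both sides of 0, with Cry1 and Tef higher at ZT18 and the values of Per1 and Ciart negative. Capitals mark the motifs, which begin 60 bases before the start in Cry1 and 205 and 158 bases before it in Per3.
Cry1, chr10:85185055-85185304, minus strand: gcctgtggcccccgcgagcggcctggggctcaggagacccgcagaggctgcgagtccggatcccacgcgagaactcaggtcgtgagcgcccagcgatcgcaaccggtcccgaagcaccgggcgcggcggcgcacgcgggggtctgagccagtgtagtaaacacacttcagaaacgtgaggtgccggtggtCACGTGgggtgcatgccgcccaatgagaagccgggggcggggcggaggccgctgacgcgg
Per3, chr4:151044666-151044915, minus strand: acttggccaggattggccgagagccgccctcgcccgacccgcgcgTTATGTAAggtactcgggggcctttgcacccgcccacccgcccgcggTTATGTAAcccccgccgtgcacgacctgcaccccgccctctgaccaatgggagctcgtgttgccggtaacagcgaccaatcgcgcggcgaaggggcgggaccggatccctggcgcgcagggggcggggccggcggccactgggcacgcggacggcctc

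Immediate early genes had mostly lower values at ZT18. Of 38 measured members 3 passed (Npas4, Ier2 and Fosb), all lower, where 0.379% of all genes passed downward. The list's median was -0.55, 33 of 38 members had a negative difference, and for 18 members every animal at ZT18 was below every animal at ZT6, which held for 5.81% of all genes. Npas4, a transcription factor that neurons make in response to calcium entry (chromosome 19, 4984353 to 5003439, GRCm38), was at 131, 109.7 and 253 normalized counts at ZT18, against 651, 402, 360.1 and 294 at ZT6. Animal 18_305 came close to animal 6_315, and the level fell by 62.2% (log2 difference -1.40 ± 0.36, adjusted p = 0.0371, limma). Ier2, an early response gene, was at 154, 146 and 131 normalized counts at ZT18, against 418, 302.4, 296 and 287 at ZT6 (log2 difference -1.16 ± 0.29, adjusted p = 0.0294). Fosb, a subunit of AP-1, was at 171, 218 and 209 normalized counts at ZT18, against 428, 579, 325.9 and 464 at ZT6 (log2 difference -1.14 ± 0.31, adjusted p = 0.0458). Nptx2, a secreted synaptic pentraxin, had a difference of -0.74 ± 0.20 and just missed the threshold (adjusted p = 0.052). The widest differences of the list were those of Egr2 and Fos, given here after their values were seen. Egr2 was at 36.1, 22.8 and 32.8 normalized counts at ZT18, against 197, 181, 99.7 and 88.5 at ZT6 (log2 difference -2.12 ± 0.82, adjusted p = 0.259). Fos was at 151, 272 and 268 normalized counts at ZT18, against 753, 987, 535 and 730.1 at ZT6 (log2 difference -1.72 ± 0.60, adjusted p = 0.17). Neither passed, although no animal overlapped. Jun, Nr4a2, Homer1, Klf6 and Inhba had positive differences, none of which passed. Between 0 and 3 members were called as 1 animal was left out, and none without 6_307 and 6_315, where the median was -0.59. The element TGACGTCA (CRE) was present in 2 of 29 windows (6.9%, Dusp1 and Btg2), against 1.77% of all windows and 2.99% of those of measured genes. Fosb and Npas4 held no match, and Ier2 had no window to search.

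Genes of sterol synthesis had mostly lower values at ZT18. Of 25 measured genes of 26 listed, 4 passed, all lower (Insig1, Cyp51 and Fdft1 among them), where 0.379% of all genes passed downward, 23 were negative and the median was -0.36. For 15 of the 25 the animals did not overlap, against 12.5% of all genes. Insig1 encodes the ER protein that holds SREBP back when sterol is plentiful (chromosome 5, 28071412 to 28078662, GRCm38) and was at 2998, 2387 and 2806 normalized counts at ZT18, against 4725, 4241, 4162 and 4009 at ZT6. All 3 animals at ZT18 were well below the ZT6 range, and the level fell by 36.4% (log2 difference -0.65 ± 0.16, adjusted p = 0.0243, limma). Fdft1, squalene synthase, was at 4560, 4356 and 4094 normalized counts at ZT18, against 5264, 5431, 5648 and 6034 at ZT6 (log2 difference -0.37 ± 0.10, adjusted p = 0.0458). Cyp51, lanosterol demethylase, was at 2747, 2616 and 2703 normalized counts at ZT18, against 3413, 3454, 3269 and 3945 at ZT6 (log2 difference -0.39 ± 0.10, adjusted p = 0.0455). The falls of Fdft1 and Cyp51 were small next to that of Insig1, with tight animals on both sides. Hmgcs1, the synthase at the entry of the pathway, differed by -0.36 and did not pass. Leaving out 1 animal left at most 1 of the 4 calls and leaving out 6_307 and 6_315 left none, with the median between -0.37 and -0.28 in those fits with 1 animal fewer. The sterol element TCACNCCAC was present in 1 of 18 windows (5.56%, Hmgcs1), against 1.22% of all windows.

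Other lists that could follow a daily fast held few called genes. Bdh1, the mitochondrial dehydrogenase that makes or uses 3-hydroxybutyrate, was at 1649, 1585 and 1560 normalized counts at ZT18, against 2031, 2032, 2400 and 2098 at ZT6 (log2 difference -0.42 ± 0.10, adjusted p = 0.0201, limma) and was lower in every ZT18 animal. It was the single call among 20 genes of ketone body and fatty acid oxidation, where 0.379% of all genes passed downward. The median of these 20 genes was -0.05 (-0.08 to -0.01 as 1 animal was left out, the lowest without 6_331 and the highest without 6_308). Slc16a1, a carrier of ketone bodies and lactate, differed by -0.32 ± 0.11 and did not pass (adjusted p = 0.161). None of 26 genes induced by FOXO or fasting passed, and 1 had an unadjusted p under 0.05, Slc25a42, a mitochondrial carrier of coenzyme A (0.52 ± 0.16, adjusted p = 0.0918). None of 28 genes of glycolysis, glycogen and glucose uptake passed (2 unadjusted), none of 25 genes of insulin and mTOR signalling (2 unadjusted) and none of 26 ATF4 targets (2 unadjusted). In the order given, the unadjusted share was 3.85% (FOXO or fasting), 7.14%, 8% and 7.69%, against 10.4% of all genes. The share without overlap was 11.5%, 3.57%, 12% and 23.1%, against 12.5% of all genes. The share of the ATF4 targets came from 6 genes, all lower at ZT18, against 5.81% of all genes. Among 23 glucocorticoid-induced genes 1 passed, Mertk, where 0.75% of all genes passed upward. This phagocytic receptor of astrocytes and microglia was at 1450, 1524 and 1662 normalized counts at ZT18, against 972, 1257, 1012 and 1178 at ZT6 (log2 difference 0.49 ± 0.13, adjusted p = 0.0391). Of the glucocorticoid list 5 genes (21.7%) had an unadjusted p under 0.05, against 10.4% of all genes. The animals did not overlap for 3 genes higher and 4 lower at ZT18 (30.4%, against 12.5% of all genes). The list's median was -0.06, and it became -0.10 without 18_330, -0.13 without 18_305, -0.11 without 6_307 and -0.18 without 6_315. Plin4, a lipid droplet coat protein of the same list, had a larger difference of 1.47 ± 0.56 with wide spread and did not pass (adjusted p = 0.254).

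Splicing factors were mixed. Of 37 SR and hnRNP genes 3 passed, all higher at ZT18, where 0.75% of all genes passed upward. Positive differences were found in 26, and the median of 0.11 became 0.19 without 6_307 and 0.07 without 6_315. Tra2a, a splicing activator (chromosome 6, 49243921 to 49264248, GRCm38), was at 3490, 3201 and 3381 normalized counts at ZT18, against 1856, 2346, 1902 and 1701 at ZT6 (log2 difference 0.79 ± 0.17, adjusted p = 0.0119, limma). Srsf10, an SR protein, was at 4123, 4015 and 3506 normalized counts at ZT18, against 2575, 2811, 2993 and 2813 at ZT6 (log2 difference 0.47 ± 0.10, adjusted p = 0.00867). Luc7l, a protein of the U1 particle, was at 6111, 5765 and 6059 normalized counts at ZT18, against 4682, 4842, 4608 and 3765 at ZT6 (log2 difference 0.42 ± 0.09, adjusted p = 0.00893). Hnrnpdl lay on the other side, with 5526, 4844 and 5209 normalized counts at ZT18, against 7512, 7548, 9080 and 6266 at ZT6, and just missed the threshold (log2 difference -0.54 ± 0.15, adjusted p = 0.0523). Between 0 and 3 members were called upward as 1 animal was left out, and 1 downward call appeared at most.

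Among the largest single changes were genes that belong to none of these groups. Banp, a nuclear protein that binds unmethylated DNA motifs (chromosome 8, 121947972 to 122029260, GRCm38), was at 1434, 1381 and 1478 normalized counts at ZT18, against 574, 861, 619.5 and 757 at ZT6. It was 2.06-fold higher (log2 difference 1.04 ± 0.16, adjusted p = 0.0002, limma), with no overlap. Zbtb40, a zinc finger protein, was at 680.3, 682 and 874 normalized counts at ZT18, against 267, 371, 227 and 248 at ZT6 (log2 difference 1.43 ± 0.24, adjusted p = 0.000511). Tubd1, delta tubulin, was at 325.4, 261 and 324.8 normalized counts at ZT18, against 122.1, 174, 125.6 and 133 at ZT6 (log2 difference 1.13 ± 0.23, adjusted p = 0.00617). Fmo2, a flavin monooxygenase, was at 207, 392 and 345 normalized counts at ZT18, against 125.8, 117.9, 95.1 and 62.7 at ZT6 (log2 difference 1.64 ± 0.38, adjusted p = 0.0192), with animal 18_330 lowest at ZT18. Noxred1 was low throughout, at 72.1, 134.5 and 118.3 normalized counts at ZT18, against 34, 38.6, 20.3 and 43.6 at ZT6 (log2 difference 1.64 ± 0.41, adjusted p = 0.0256). Cys1, a protein of the primary cilium, differed by 1.02 ± 0.25. H3c14, a histone H3 gene of a family with near-identical copies, differed by 1.09 ± 0.28 and is uncertain for that reason. On the side of the falls, Pla2g4e, a phospholipase A2 family enzyme that makes N-acyl phospholipids (chromosome 2, 120166412 to 120245630, GRCm38), was at 158, 147 and 201.99 normalized counts at ZT18, against 388, 367, 414 and 384 at ZT6. It fell by 56.7% in tightly grouped animals (log2 difference -1.21 ± 0.23, adjusted p = 0.00337). Mcm2, a subunit of the replicative helicase, was at 105, 93.1 and 132 normalized counts at ZT18, against 239, 201, 173 and 245 at ZT6 (log2 difference -0.96 ± 0.19, adjusted p = 0.00393). Cstad, Fbxl9 and 9930014A18Rik were low genes, with 26.2, 24.8 and 10.9 normalized counts at ZT18, against 53.2, 85.4, 38.8 and 102.2 at ZT6 for Cstad. Tnni1, slow skeletal troponin I, differed by -1.14 ± 0.31, and its call was lost without any 1 of the 7 animals.

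Opalin was the one called gene among the oligodendrocyte markers, where 0.379% of all genes passed downward. This membrane protein of myelinating oligodendrocytes (chromosome 19, 41061959 to 41077113, GRCm38) was at 339, 493 and 283 normalized counts at ZT18, against 1088, 1060, 1177 and 889 at ZT6. All 3 animals at ZT18 lay below the lowest animal at ZT6. It fell by 65.4% (log2 difference -1.53 ± 0.23, adjusted p = 0.0002, limma) and was the one described gene called under all 24 alternatives. The other 17 of 18 oligodendrocyte and myelin markers did not pass, the list's median was 0.04 and 10 of 18 were positive. That median rested on single animals: it was -0.18 with 3 of 18 positive without 6_307 and 6_315, -0.09 with 5 positive without 6_315 alone, -0.07 with 7 positive without 18_302, and 0.11 with 11 positive without 18_330. Aspa (-0.44 ± 0.18) and Cnp (-0.42 ± 0.18), both oligodendrocyte enzymes, were lower and Ermn, a cytoskeletal protein of myelin, was higher (0.38 ± 0.16), and none of these passed. The summed level of the 18 genes ranged from 206593 to 262645 at ZT18, against 195824 to 254307 at ZT6. In bulk tissue fewer cells of a type and less RNA per cell cannot be told apart. Fgfr3, a receptor of astrocytes, was at 6815, 5702 and 6087 normalized counts at ZT18, against 3963, 4663, 4719 and 4237 at ZT6 (log2 difference 0.50 ± 0.13, adjusted p = 0.0332). It was the one call among 14 astrocyte markers, where 0.75% of all genes passed upward. The median of these 14 markers was -0.08 (-0.16 without 18_302 and -0.02 without 18_305). Aqp4, the water channel of astrocyte endfeet, had a difference of -0.47 ± 0.19 and did not pass. Gpr17, a receptor of committed oligodendrocyte precursors, differed by 0.58 ± 0.17 (adjusted p = 0.0598). This was the largest difference among 12 oligodendrocyte precursor markers, none of which passed. Their median was 0.08 with 8 positive, and -0.07 with 4 positive without 6_307 and 6_315. All 14 endothelium markers had positive differences (median 0.24) and none passed. The endothelial sum ranged from 12018 to 13174 at ZT18, against 8964 to 12628 at ZT6, and without 6_307 and 6_315 the median was -0.02. Its part in the results above was not tested.

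Genes of amyloid biology gave no call. Of 20 genes of the APP family and its processing, 12 were positive with a median of 0.07, which was -0.01 without 6_307, and -0.01 with 8 positive without 6_307 and 6_315. Adam10, the main alpha-secretase, differed by 0.25 ± 0.08 (adjusted p = 0.129) and Aph1b, a gamma-secretase subunit, by 0.32 ± 0.11 (adjusted p = 0.151), both without overlap. Absence of overlap held for 10% of this list, against 12.5% of all genes. App was at 51537, 53899 and 52584 normalized counts at ZT18, against 52627, 52914, 43317 and 51874 at ZT6, and only animal 6_307 stood apart, as the lowest. Whether reads of the human APP transgene were counted in App was not tested. None of 24 measured plaque-associated microglia genes passed, and 4 (16.7%) had an unadjusted p under 0.05, against 10.4% of all genes. The median was -0.13, with -0.08 without 6_307, -0.09 without 18_305 or 6_308, and -0.22 without 6_315. Lpl, lipoprotein lipase, differed by -0.48 ± 0.19 and Gpnmb, a lysosomal glycoprotein, by -0.55 ± 0.25. Cytosolic ribosomal proteins (75 genes, median -0.12), nuclear respiratory chain genes (51, -0.03), proteasome subunits (32, -0.07) and mitochondrially encoded transcripts (14, -0.28) held no called gene. Their medians moved with single libraries of both groups. Without 6_307 the ribosomal median was 0.02 and the respiratory median 0.09, and without 6_315 the mitochondrial median was -0.14. Without 18_330 the ribosomal median was -0.19 and the respiratory median -0.11. Without 18_305 the respiratory median was 0.02 and the mitochondrial median -0.18.

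The same contrast was taken in animals that share no mouse with these 7. In TG on ALF 15 genes (0.105%) passed, 10 higher (0.0701%) and 5 lower (0.0351%), and in NTG on TRF none passed, with 788 at an unadjusted p under 0.05. Of the 161 genes called on TRF 11 were also called in TG on ALF, which is 6.83% of the first list and 73.3% of the second. They were Hspa5, Sdf2l1, Xbp1, Cry1, Banp, Zbtb40, Pla2g4e, Pid1, Zfp46, Slc30a1 and Cdhr1. The direction was shared more widely. Of the genes called higher on TRF, 100% were positive in TG on ALF and 99.1% (all but 1) in NTG on TRF. Over all genes positive on TRF, 66.2% were positive in TG on ALF and 66.0% in NTG on TRF. Of the 54 called lower, 52 were negative in TG on ALF and 54 in NTG on TRF, where the share for all genes negative on TRF was 64.5% and 64.1%. The median of the rises was 0.51 on TRF, against 0.31 in TG on ALF and 0.36 in NTG on TRF. The median of the falls was -0.63, against -0.33 and -0.45. The genes were chosen by their call in the TG animals on TRF, so a larger value there is partly given by that choice.

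**Figure D4:**
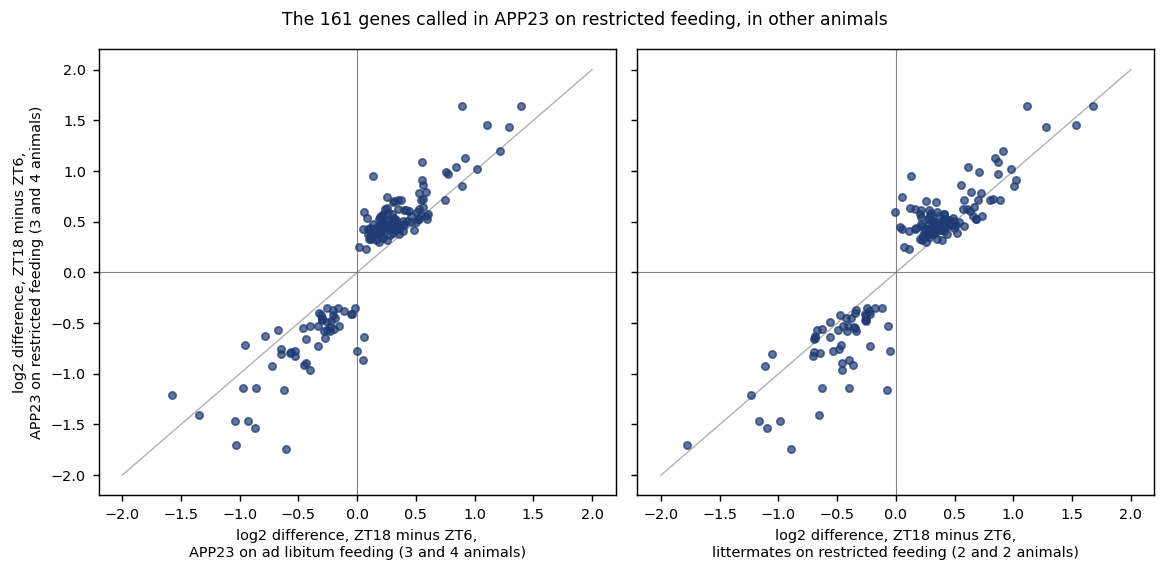
Log2 difference (ZT18 minus ZT6) of the 161 genes called in TG on TRF (vertical), plotted against the same difference in TG on ALF (left panel) and in NTG on TRF (right panel), each point 1 gene and the grey line equality. Most points lie in the quadrants of shared direction, 100% of the rises and 52 of 54 falls on the left.

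No gene passed the test of a difference between feedings or between genotypes in this contrast. The test of TRF minus ALF in TG called 0 genes (limma, 193 at an unadjusted p under 0.05), and the test of TG minus NTG on TRF called 0 (165 unadjusted). Under all other fits the first stayed at 0, and the second reached at most 1, without the NTG animal 6_309. Hspa5 had a log2 difference of 0.86 ± 0.15 in TG on TRF, against 0.90 in TG on ALF, and the difference between feedings was -0.04 ± 0.22 (SE). In NTG on TRF it was 1.0, and the difference between genotypes was -0.15 ± 0.25 (SE). ER chaperones had a median of 0.42 in TG on TRF, against 0.33 in TG on ALF and 0.36 in NTG on TRF, and the heat shock list 0.22, against 0.23 and 0.25. Cholesterol synthesis had -0.36, against -0.16 and -0.31. Immediate early genes had -0.55, against -0.26 and -0.03, and their members had a negative difference of TG minus NTG in 31 of 38, none of which passed and 1 of which had an unadjusted p under 0.05. That member was Ier2, with -1.16 in TG on TRF and -0.08 in NTG on TRF (difference -1.08 ± 0.48 (SE), unadjusted p = 0.0293). Opalin had estimates of -1.53 in TG on TRF, -0.87 in TG on ALF and -1.10 in NTG on TRF (difference TRF minus ALF -0.66 ± 0.33 (SE)). The smallest unadjusted p values for feeding belonged to Ccdc8 (-1.46), Zbtb24 (-0.48), Gm9776 (-0.92), Myom3 (-1.68) and Tmc7 (0.47), all with an adjusted p of 0.999. Those for genotype belonged to Grpel2 (-0.52), Gtf3c6 (-0.75), Proca1 (-1.59), Gm16892 (1.54) and Zfp184 (-1.17), all with an adjusted p of 1.0. With 2 animals against 2 in NTG and 3 against 4 in each TG group, wide intervals go with these differences, so a p above the threshold does not show that the changes are alike.

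Over the whole day in TG on TRF, ZT18 was the highest of the 4 means for 89.7% of the genes called higher (96 genes), and ZT6 was the lowest for 84.1% (90 genes). Of the 54 called lower, ZT18 was the lowest for 52 and ZT6 the highest for 47. Over all genes ZT18 was the highest for 25.2% and the lowest for 24.6%. The rule that picked these genes uses both times, so extremes there are partly given by the choice. Of the rises, 16 had their lowest mean at ZT12 and 8 their highest mean at ZT0.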

How the data were processed

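Poly-A selected RNA from the hippocampus of one hemibrain per mouse was sequenced on a NovaSeq 6000, and Trimmomatic trimmed the reads, per the labels' protocols. Per the submitters' processing notes the tools included featureCounts, HISAT2 and DESeq2, with the genome build GRCm38. Versions, annotation and strand setting are not given in the sources used here, so overlapping and antisense genes cannot be told apart. The deposited values are a normalized signal per gene, which the authors made by dividing read counts by 1 factor per library. All values of a library are whole multiples of 1 step (tolerance 0.01 of a step), from which depths of 29.3 to 47.1 M reads in the 7 libraries were estimated. How counting error compares with the spread between animals was not measured.

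The table held 14260 genes, of which 97.6% matched RefSeq. Values were taken as log2(value + 1), a filter at a mean of 10 removed 0 genes, and 69 animals entered one model of 16 means (libraries 12_232 and 12_232R averaged), tested with limma 3.58.1 (R 4.3.3, variance trend, robust, 2-sided, Benjamini-Hochberg over all genes, threshold 0.05). Fold changes are on the log2(value + 1) scale and understate changes of low genes. The test was tried on simulated data with known changes, and as the outcome is not reported here, no conclusion about the calls is drawn from it. Samples were grouped by the labels, and each library is another animal. Genes were named by a rule: the 10 largest rises and falls among called genes without overlap, all clock genes, up to 4 members of smallest p per list, and 5 genes per difference between contrasts. The groups and gene lists were chosen with earlier results of these data known. Other fits changed the animals that share the spread, the pseudocount, the filter, weights, scaling, covariates and single animals. Some genes that the rule names are not reported here.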

Additional observations from a re-analysis of the deposited data

Results flagged for a closer look

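Among 166 genes described or listed by the naming rule, 15 had 1 animal of the 4 at ZT6 that lay far from the other 3 (Dixon's ratio), and chance alone gives about 1 in 20. Animal 6_307 was the one apart in 6 of them, at normalized counts of 3760 for Rbm3 (others up to 2640), 1494 for Igf1r (others from 2543), 2694 for Ndufb7 (others up to 2025), 5596 for Sdhb (others up to 4005), 182.8 for Iyd (others up to 120.2) and 2292 for C1qc (others up to 1575). Animal 6_315 was apart in 4, at 83611 for ND6 (others up to 54807), 311018 for ND5 (others up to 180452), 4496 for Clock (others up to 3401) and 1738 for Aph1b (others up to 1452). Animal 6_331 was apart at 1836 for Per3 (others up to 1476), 14075 for Tef (others up to 12500) and 793.9 for Tmc7 (others up to 632.4). Animal 6_308 was apart at 417.6 for Ier2 (others up to 302.4) and 14815 for Nefl (others from 16654). For Per3 and Tef the outlying animal lay toward the ZT18 range, and for Ier2 away from it.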

How the results depend on the processing

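The 161 calls for ZT18 against ZT6 in TG on TRF became 16 when only the 18 TG animals on TRF shared the spread, 49 with only the groups of the contrast, 788 with array weights, 19 without libraries 6_307 and 6_315 (a fit chosen after seeing the data), and 29 to 175 as 1 animal was left out at a time. The other fits (300 number series, pseudocounts 10 and 0.1, no filter, a mean of at least 200, no trend, voom weights, total and quantile scaling, covariates for choroid plexus, myelin and Xist, library 12_232 only) gave 146 to 192. The 15 calls in TG on ALF became 34 with only the groups of the contrast, 37 with the 300 number series, 352 with array weights, 39 with quantile normalization, 61 with the myelin level as covariate, and 2 to 28 as 1 animal was left out. The 0 calls in NTG on TRF became 6 with the 300 number series, 7 with a mean of at least 200, 9 with the choroid plexus covariate, 7 with the myelin covariate, and 0 to 7 as 1 animal was left out. The difference between genotypes gave 0 to 1 call as 1 animal was left out, and that between feedings gave 0 under every fit run. Leaving out an animal also leaves fewer animals in the fit, and the cause of these changes in the counts was not tested. Of the 41 called genes that the naming rule chose none changed direction under the 24 fits (23 for 9 low genes that a mean of at least 200 removes), 40 lost their call under at least 1 and Opalin under none, and 23 other named genes gained a call in at least 1. When only the 18 TG animals on TRF shared the spread, 34 of the 41 lost their call, whereas with array weights none did. In the fit of those 18 animals no ER chaperone, clock, sterol synthesis, immediate early or splicing gene of the lists was called. Of the heat shock list 3 genes were still called there. No paired analysis was possible because animal numbers are unique to an animal and the groups share none.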
